A study of Mus musculus with 12 samples.

Results

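The MPS1 inhibitor effect averaged over both MAVS genotypes was read from all 12 of the 12 tumour RNA libraries: 6 libraries of inhibitor-treated tumours were set against 6 libraries of control tumours. Each side held 3 libraries from tumours of MAVS-reconstituted cells and 3 from tumours of MAVS-knockout cells, and the averaged effect of a gene was the mean of its 2 within-genotype log2 differences. All tumours came from the mouse lung cancer line 393P, grown subcutaneously in the flank of male 129S2/SvPasCrl mice aged 8 weeks. The stated aim of the study was to find which changes after pulsed MPS1 inhibition depend on MAVS; the averaged effect weighs both genotypes equally.

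The inhibitor groups were MAVS-reconstituted and MAVS-knockout tumours in mice that received BAY-1217389 at 5 mg/kg, 2 times daily for 2 days, with collection on the following day. The drug vehicle was water (40%) with PEG 400 (50%) and ethanol (10%). The control groups were MAVS-reconstituted and MAVS-knockout tumours whose treatment is labelled as control and whose titles carry the mark Veh. Luc is the title word for the knockout groups, and the labels do not explain it. Each genotype is 1 injected cell population, so that a genotype difference and any other difference between these populations cannot be told apart. The labels name no change of MAVS in the host mice. Whole tumour pieces were measured, so that fewer cells of a type and less RNA per cell cannot be told apart. The labels do not state that each library came from its own animal, so p-values reflect the spread among these samples, which may be technical.

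MPS1, encoded by Ttk, is the kinase that starts the spindle assembly checkpoint, which holds cells in metaphase until every kinetochore is attached to the spindle. Inhibition of MPS1 lets cells divide with unattached chromosomes, and the daughter cells carry aneuploid genomes and micronuclei. Missegregation is known in cultured cells to be followed by p53 activation, by cytosolic nucleic acid sensing and by interferon production; MAVS, on mitochondria, relays the signals of the RNA sensors RIG-I and MDA5. The inhibitor acts on the kinase protein and not on its transcript.

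Library totals ran from 52983715 to 69108411 counts, and 17885 genes were tested; 3 counts corresponded to 0.0434 to 0.0566 CPM. Values are given as CPM (counts normalised for library size, including edgeR's TMM factors) or as the log2 difference, MPS1 inhibitor minus control, with its standard error (SE). In a principal component analysis, replicate 1 of the reconstituted inhibitor group lay at -103 on the first component (28.5% of the variance), and the other 11 libraries lay between -28.7 and 48.6. Skeletal muscle markers took 0.393% of its counts and 0.0140 to 0.138% in the other 11. Effects and list medians beyond 0.1 log2 units that moved by over 1.5 times without this library are also given without it.

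Mavs stood at 50.1, 53.8 and 62.8 CPM in reconstituted and 43.5, 39.4 and 41 CPM in knockout inhibitor tumours, against 85.1, 68.9 and 59.1 CPM in reconstituted and 40.5, 42.5 and 45.7 CPM in knockout controls. The 6 reconstituted libraries all lay above the 6 knockout libraries, in the order the genotype labels give. The averaged inhibitor effect on Mavs was -0.20 ± 0.09 (SE, unadjusted p = 0.0447), with -0.35 in reconstituted and -0.055 in knockout tumours. Ttk, the gene of the drug target, stood at 15.2, 18.6 and 18.8 CPM in reconstituted and 20.1, 18.1 and 17.5 CPM in knockout inhibitor tumours, against 22.5, 20.4 and 16.8 CPM in reconstituted and 18.4, 15.3 and 16.3 CPM in knockout controls. Inhibitor and control libraries of Ttk overlapped in both genotypes. Its averaged effect was -0.012 ± 0.092 (SE), with a 95% interval of -0.21 to 0.19; its sign changed in 4 of the 12 fits that left out 1 library.

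No gene passed adjustment for the averaged effect. In edgeR's quasi-likelihood test, 0 of 17885 genes (0%) had a Benjamini-Hochberg adjusted p below 0.05, and the smallest was 0.522. At an unadjusted p below 0.05 there were 738 genes higher (4.13%) and 661 genes lower (3.70%) under the inhibitor, 1399 in all (7.82%). List counts at that p given below are to be read against these shares. DESeq2 called 1 gene, Cdh5, and had 1705 at an unadjusted p below 0.05; limma-voom called 0 and had 1470. Positive log2 differences were found for 8810 genes (49.3%) and negative ones for 9075 (50.7%). The 95% interval of a gene reached a median of 0.27 log2 units to either side, and 0.21 for the 12934 genes whose mean log2 CPM was 1 or more.

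Single libraries moved these counts. The number of genes at an unadjusted p below 0.05 was 4857 without reconstituted inhibitor replicate 3, 2212 without knockout inhibitor replicate 1 and 734 without reconstituted inhibitor replicate 1. It was 650 and 878 without knockout inhibitor replicates 3 and 2, 883 and 903 without reconstituted control replicates 1 and 2, and 814 and 924 without knockout control replicates 2 and 3. Genes that passed adjustment appeared in 3 of the 12 fits with 1 library left out. These were Rsc1a1, higher, without knockout control replicate 3; Gm14230, higher, without reconstituted control replicate 3; and ATP8, Ddi2 and Cdv3-ps, lower, without reconstituted inhibitor replicate 3. Gm14230 and Cdv3-ps were chosen after their values were seen, as were all partner genes and list ends named below.

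The 2 within-genotype effects that enter the average share no library and differed in size. Their standard deviation over genes was 0.63 log2 units in reconstituted and 0.43 in knockout tumours, against 0.37 for the average. At an unadjusted p below 0.05 there were 5827 genes (32.6%) in reconstituted tumours and 305 (1.71%) in knockout tumours, with 0 genes passing adjustment in either (smallest adjusted p 0.0729 and 1). The sign was the same in both genotypes for 6496 genes (36.3%). Across the 17885 genes, which are not independent replicates, Pearson's r between the 2 effects was -0.053 and Spearman's rho was -0.26, as a description. Among the 1399 genes with an averaged p below 0.05, 919 (65.7%) had the same sign, and 675 (48.2%) had an interaction p below 0.05, against 4421 of all genes (24.7%). The interaction, reconstituted minus knockout, passed adjustment for 0 genes in edgeR (smallest adjusted p 0.144). It passed for 1345 genes in DESeq2, for 3405 genes in limma-voom with sample quality weights and, in edgeR, for 4005 genes without reconstituted inhibitor replicate 3 and for 1 gene without reconstituted control replicate 3.

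**Figure D1:**
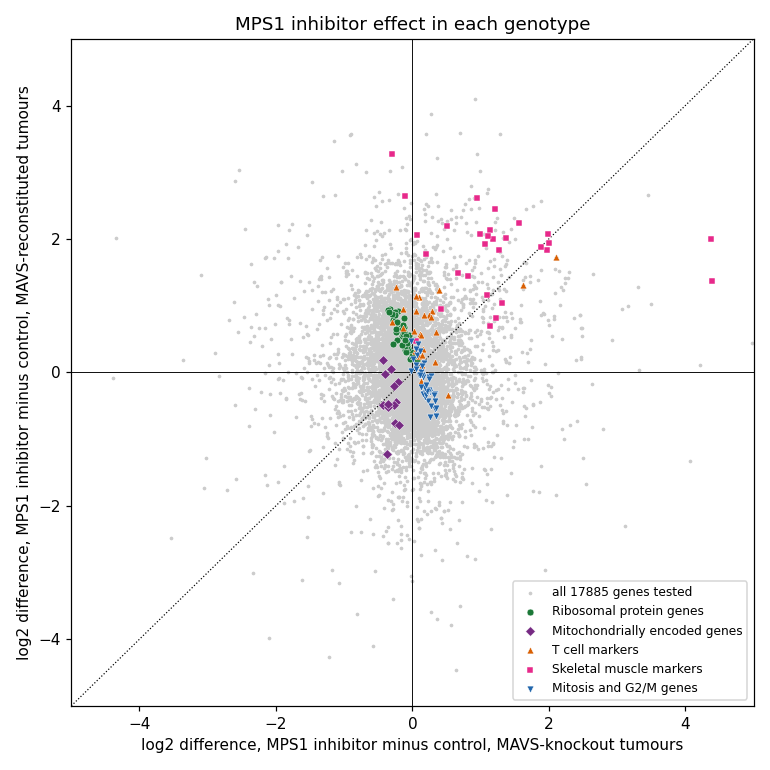
Log2 difference, MPS1 inhibitor minus control, in MAVS-reconstituted tumours (y axis) against that in MAVS-knockout tumours (x axis), 1 point per gene. Of 17885 genes, 43 lie outside the plotted range of -5 to 5. Mitochondrially encoded genes lie mainly at the lower left and muscle and T cell markers mainly at the upper right, while ribosomal protein genes lie mainly at the upper left.

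The genes with the smallest p among those higher under the inhibitor included regulators of cell death, of inflammation and of metal handling; none passed adjustment (adjusted p 0.522 or more). Moap1, whose product binds BAX and promotes apoptosis, stood at 4.31, 4.72 and 4.71 CPM in reconstituted and 3.64, 3.57 and 3.14 CPM in knockout inhibitor tumours, against 2.13, 2.19 and 1.65 CPM in reconstituted and 2.02, 2.85 and 3.86 CPM in knockout controls. In reconstituted tumours the 3 inhibitor libraries lay above the 3 controls, and in knockout tumours the groups overlapped. Its averaged effect was 0.72 ± 0.16 (SE, unadjusted p = 0.000715), with 1.2 in reconstituted and 0.25 in knockout tumours. Moap1 overlaps the predicted gene Gm20604 on the same strand, so its counts are uncertain; the sum of both genes was 14.3, 16.0 and 14.4 CPM in reconstituted and 13.1, 13.2 and 14.2 CPM in knockout inhibitor tumours, against 11.8, 13.1 and 13.7 CPM in reconstituted and 15.7, 14.7 and 14.99 CPM in knockout controls. The summed inhibitor libraries lay above the controls in reconstituted tumours and below them in knockout tumours.

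Cebpb, a transcription factor of inflammatory and stress responses, stood at 288, 185 and 141 CPM in reconstituted and 76.3, 119 and 109.98 CPM in knockout inhibitor tumours, against 86.1, 109 and 123 CPM in reconstituted and 80.2, 67.4 and 74.8 CPM in knockout controls. The highest value was in the reconstituted inhibitor library that stood apart, and in knockout tumours the lowest inhibitor value lay below the highest control. Averaged over genotypes, the effect was 0.70 ± 0.17 (SE, unadjusted p = 0.00182) and 0.54 without that library. Plekhf1, an endosomal phosphoinositide-binding protein, had 0.42 ± 0.10 (SE, unadjusted p = 0.00129), with 33.7, 45 and 71.3 CPM (lowest, median and highest of 6) in inhibitor tumours, against 27.9, 36 and 44.8 CPM in controls. Its effect was 0.62 in reconstituted and 0.22 in knockout tumours.

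For 3 of the leading genes, all inhibitor libraries lay above the controls within each genotype, the pattern found for 28 of 17885 genes (0.157%) in this direction and for 65 (0.363%) in either. This is the pattern at which the exact permutation test, which has 400 arrangements within genotype, reaches its smallest two-sided p of 0.005. Shuffled treatment labels would give the pattern for a share of 0.005 of genes, and the share found, 0.363%, was no larger than that. Ube2t, the ubiquitin-conjugating enzyme of the Fanconi anaemia pathway, stood at 9.17, 8.68 and 7.15 CPM in reconstituted and 7.58, 7.66 and 7.11 CPM in knockout inhibitor tumours, against 6.89, 5.81 and 5.75 CPM in reconstituted and 6.57, 6.26 and 5.72 CPM in knockout controls. All 6 inhibitor libraries lay above all 6 controls, as for 7 genes (0.0391%), and the averaged effect was 0.35 ± 0.095 (SE, unadjusted p = 0.0033). Nubp1, an assembly factor of cytosolic iron-sulfur proteins, had 0.23 ± 0.058 with 0.27 in reconstituted and 0.19 in knockout tumours. Rbm14, a paraspeckle RNA-binding protein, had 0.19 ± 0.047 with 0.27 and 0.11. Its gene overlaps Gm21992 on the same strand, and the sum of both genes was separated in reconstituted tumours only. In knockout tumours the sum was 59.5, 63.0 and 65.8 CPM under the inhibitor, against 59.6, 60.1 and 57.2 CPM in controls. The remaining 3 of the 10 genes with the smallest p in this direction were Slc39a1, a zinc importer (0.20), the homeobox factor Irx3 (0.30) and the centriole protein gene Poc1a (0.37), each with a smaller effect in knockout tumours (0.077, 0.15 and 0.15).

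Rsc1a1 had the smallest p of the genes higher under the inhibitor, at 3.55 ± 0.72 (SE, unadjusted p = 0.00042). It stood at 7.83, 9.11 and 9.68 CPM in reconstituted and 10.1, 8.04 and 7.84 CPM in knockout inhibitor tumours, against 0.052, 0.169 and 0.224 CPM in reconstituted and 0.781, 0.337 and 10.1 CPM in knockout controls. All 6 inhibitor libraries and knockout control replicate 3 lay between 7.83 and 10.1 CPM, and the other 5 controls between 0.0520 and 0.781 CPM. The gene (chromosome 4, 141683563 to 141685716, GRCm38.p6) lies within Ddi2 on the same strand. Ddi2, a retroviral-type protease gene, stood at 10.7, 11.1 and 26.5 CPM in reconstituted and 27.9, 21.4 and 19.5 CPM in knockout inhibitor tumours, against 39, 35.6 and 34.4 CPM in reconstituted and 27.2, 28.7 and 21.3 CPM in knockout controls, with an averaged effect of -0.67 ± 0.21. The sum of both genes was 18.5, 20.2 and 36.2 CPM in reconstituted and 37.9, 29.4 and 27.3 CPM in knockout inhibitor tumours, against 39.1, 35.8 and 34.6 CPM in reconstituted and 28, 29.1 and 31.4 CPM in knockout controls. The summed groups overlapped in both genotypes. How reads of overlapping genes were assigned is not stated in the labels, and a part of that assignment in the difference was not tested.

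**Figure D2:**
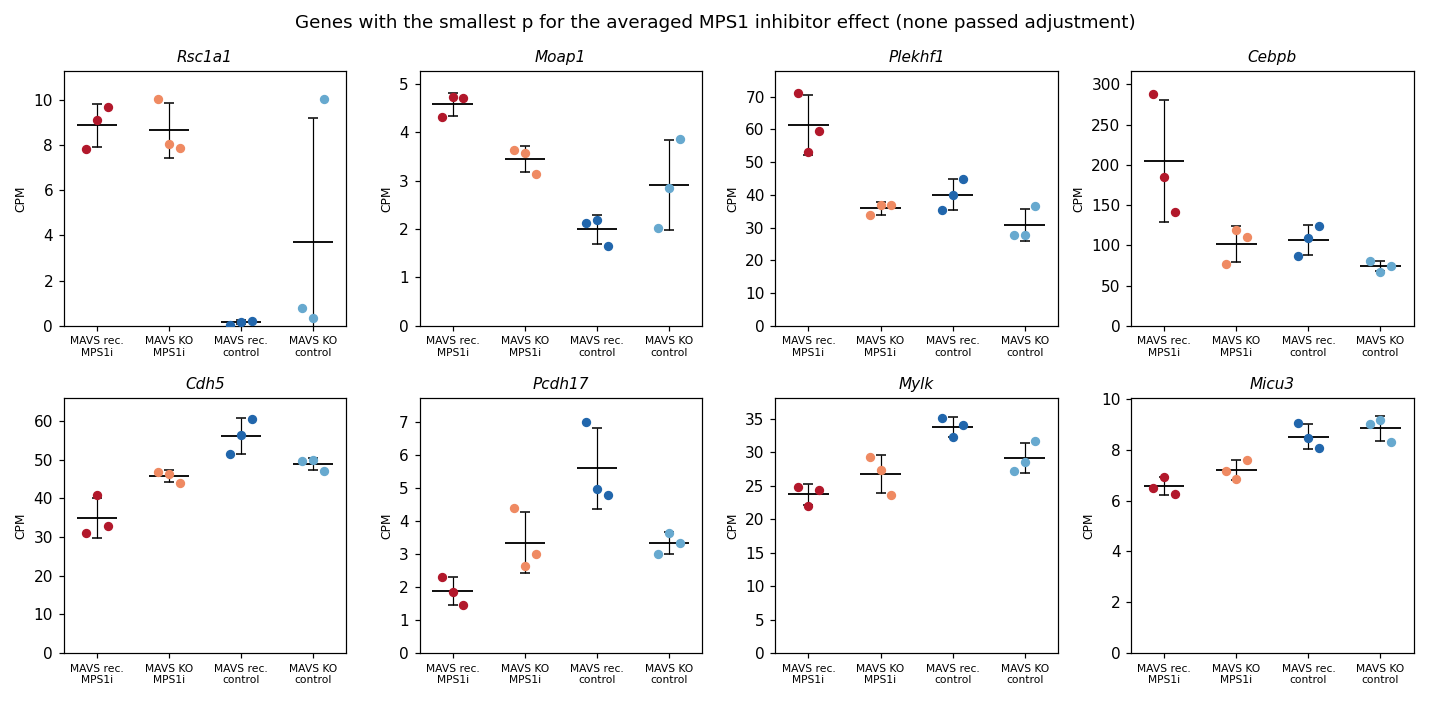
CPM in each library of the 4 genes with the smallest p in each direction for the averaged effect (upper row higher, lower row lower under the inhibitor). Points are libraries, bars the mean ± SD (n = 3) of each genotype and treatment. Cdh5 and Micu3 separate all 6 inhibitor libraries from all 6 controls, while Rsc1a1 has 1 knockout control at the level of the inhibitor libraries.

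Genes with the smallest p among those lower under the inhibitor included endothelial and contractile genes. Cdh5, the endothelial adhesion protein VE-cadherin (chromosome 8, 104101613 to 104144504, GRCm38.p6), stood at 31.2, 40.9 and 32.9 CPM in reconstituted and 46.9, 46.4 and 44 CPM in knockout inhibitor tumours, against 51.4, 56.4 and 60.5 CPM in reconstituted and 49.6, 50.1 and 47.2 CPM in knockout controls. All 6 inhibitor libraries lay below all 6 controls, as for 19 of 17885 genes (0.106%). The averaged effect was -0.39 ± 0.073 (SE, 95% interval -0.55 to -0.23, unadjusted p = 0.000224, edgeR adjusted p = 0.522), and it was the gene that DESeq2 called, with -0.39 at an adjusted p of 0.0118. Most of it came from reconstituted tumours: -0.68 there and -0.10 in knockout tumours, an interaction of -0.58 (unadjusted p = 0.00197). Leaving out 1 library at a time gave -0.45 to -0.35.

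Pcdh17, a protocadherin, stood at 2.29, 1.85 and 1.45 CPM in reconstituted and 4.38, 2.64 and 3.0 CPM in knockout inhibitor tumours, against 7.0, 4.97 and 4.78 CPM in reconstituted and 2.99, 3.64 and 3.34 CPM in knockout controls. Reconstituted inhibitor libraries lay below their controls, and the knockout groups overlapped. On average Pcdh17 had -0.79 ± 0.17 (SE, unadjusted p = 0.000784), composed of -1.58 in reconstituted and 0.0076 in knockout tumours. Mylk, the myosin light chain kinase of smooth muscle, had -0.32 ± 0.07 (-0.51 and -0.12). Ptprb, the endothelial phosphatase VE-PTP, had -0.39 ± 0.11 (-0.82 and 0.034), and Scai, a repressor of the actin-regulated factor MRTF, -0.40 ± 0.11 (-0.78 and -0.024). Peli2, a ubiquitin ligase of Toll-like receptor signalling, had -0.29 ± 0.079 (-0.45 and -0.12). Cdh5, Pcdh17 and Mylk, and Nubp1 among the genes higher, overlap genes on the opposite strand. Whether the counting used strand is not stated, so it is uncertain whether their reads were kept apart. The same holds for other genes named below, among them Cdc20, B2m, Cxcl10, Ereg and Errfi1.

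Micu3, Tmem154 and Evi2b were negative in both genotypes. Micu3, a regulator of the mitochondrial calcium uniporter, stood at 6.5, 6.95 and 6.25 CPM in reconstituted and 7.16, 6.86 and 7.62 CPM in knockout inhibitor tumours, against 9.04, 8.45 and 8.05 CPM in reconstituted and 9.03, 9.19 and 8.3 CPM in knockout controls. All 6 inhibitor libraries lay below all 6 controls, and the averaged effect was -0.33 ± 0.077 (SE, unadjusted p = 0.00117), with -0.37 in reconstituted and -0.29 in knockout tumours. Tmem154, a transmembrane protein gene, showed the same separation at -0.33 ± 0.077 (-0.50 and -0.17), with 10.6, 13.7 and 14.6 CPM (lowest, median and highest of 6) in inhibitor tumours, against 15.5, 15.9 and 18 CPM in controls. Evi2b, a leukocyte membrane protein gene inside Nf1, had -1.85 ± 0.47 (-1.54 and -2.15) with 1.24, 2.95 and 6.17 CPM (lowest, median and highest of 6) in inhibitor tumours, against 2.48, 8.43 and 21.1 CPM in controls. Evi2b overlaps Evi2 on the same strand, Evi2 was listed at 0 in 1 knockout control in which Evi2b had 19.2 CPM, and their separate values are uncertain.

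Several genes outside that ranking, chosen after their values were seen, also separated inhibitor from control libraries in both genotypes. Ccr8, a chemokine receptor found on tumour regulatory T cells, stood at 0.277, 0.406 and 0.622 CPM in reconstituted and 0.43, 0.367 and 0.402 CPM in knockout inhibitor tumours, against 0.225, 0.169 and 0.224 CPM in reconstituted and 0.229, 0.101 and 0.224 CPM in knockout controls. All 6 inhibitor libraries lay above all 6 controls at this low level, and the averaged effect was 1.1 ± 0.30 (SE, unadjusted p = 0.00336), with 1.08 and 1.11 by genotype. Mir17hg, the host transcript of the miR-17-92 cluster, had -0.44 ± 0.15 (-0.37 and -0.51) with 4.19, 6.12 and 7.1 CPM (lowest, median and highest of 6) in inhibitor tumours, against 6.69, 7.91 and 9.16 CPM in controls. Kcnq1ot1, an imprinted antisense RNA within Kcnq1, had -0.52 ± 0.16 (-0.55 and -0.49) with 2.71, 3.34 and 5.16 CPM (lowest, median and highest of 6) in inhibitor tumours, against 4.02, 5.19 and 6.25 CPM in controls. The labels do not say whether the counting used strand, so it is uncertain whether reads of Kcnq1ot1 and Kcnq1 were kept apart.

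The drug target's own pathway had medians of opposite sign in the genotypes and a median near 0 on average. Of 25 spindle assembly checkpoint genes, 12 had a positive averaged effect and 0 had an unadjusted p below 0.05; the median was -0.004, with -0.14 in reconstituted and 0.20 in knockout tumours. Of 40 mitosis and G2/M genes, 20 were positive, with a median of 6.08e-04 (-0.20 and 0.19). At an unadjusted p below 0.05, 2 were higher and 0 lower, against 4.13% and 3.70% of all genes. Of the 40, 10 had the same sign in both genotypes, against 36.3% of all genes, and 20 had an interaction p below 0.05, against 24.7%. In knockout tumours 38 of them were positive, and in reconstituted tumours 12.

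The summed level of the 40 mitosis genes was 2629.7, 2548 and 2770.5 summed CPM in reconstituted and 3015, 2802 and 2562 summed CPM in knockout inhibitor tumours, against 3490.5, 2758 and 2680.3 summed CPM in reconstituted and 2614, 2309 and 2468 summed CPM in knockout controls. The inhibitor and control groups overlapped in both genotypes. Mki67, the proliferation marker Ki-67, had -0.20 ± 0.11 (SE, 95% interval -0.46 to 0.048), with -0.67 in reconstituted and 0.26 in knockout tumours and an interaction p of 0.00189. Top2a, which untangles sister chromatids, had -0.0041 ± 0.083, the checkpoint kinase gene Bub1b -0.0049 ± 0.10, cyclin B1 (Ccnb1) 0.046 ± 0.091 and the mitotic kinase gene Plk1 0.087 ± 0.078. Mitosis genes with the smallest p were Kif22, a chromosome-arm kinesin, at 0.22 ± 0.071 (unadjusted p = 0.00996), and the centromeric histone gene Cenpa at 0.25 ± 0.10. Ccnb2 followed at 0.16 (0.10 without reconstituted inhibitor replicate 1). Checkpoint genes with the smallest p were Mad2l1, whose protein sequesters Cdc20, at 0.14 ± 0.065, Aurkb at 0.15, and Cdc20. Cdc20, the activator of the anaphase-promoting complex, had 0.16 ± 0.085. It stood at 34.7, 44.5 and 45.8 CPM (lowest, median and highest of 6) in inhibitor tumours, against 33.7, 38.1 and 41.8 CPM in controls.

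The mitosis genes share a short promoter element that the list did not use. The letters TTTGAA, the core of the cell cycle homology region, were searched on both strands from 250 bases before to 50 bases after each start in RefSeq promoters (GRCm38.p6). They were found in 25 of the 33 mitosis genes with a promoter entry (75.8%), in 10 of 21 checkpoint genes (47.6%), in 5 of 31 S phase genes (16.1%) and in 2006 of all 12990 tested genes with an entry (15.4%). Windows of 2 mitosis genes with averaged effects of 0.16 and -0.0041 are shown 5′ to 3′, with the match in capitals. A match is a description and not a shown binding site.
Cdc20, chr4:118437344-118437423, minus strand: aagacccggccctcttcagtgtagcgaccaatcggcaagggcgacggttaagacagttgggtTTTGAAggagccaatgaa
Top2a, chr11:99024333-99024412, minus strand: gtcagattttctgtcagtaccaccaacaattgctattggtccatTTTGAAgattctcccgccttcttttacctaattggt

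Of 41 S phase and DNA replication genes 30 had a positive averaged effect, beside 49.3% of all genes, with a median of 0.066 (-0.018 in reconstituted and 0.12 in knockout tumours) and 1 at an unadjusted p below 0.05. With 1 library left out, the number positive ran from 24 to 34, the median from 0.019 (without reconstituted inhibitor replicate 2) to 0.10 and the number higher at that p from 0 to 13 (0 without knockout control replicate 2, and the highest values of the median and this number without reconstituted inhibitor replicate 3). That member was Rfc4, a subunit of the clamp loader, at 0.25 ± 0.11. Pcna, the sliding clamp, had 0.063 ± 0.088 with a 95% interval of -0.13 to 0.26. Of 30 DNA damage repair genes, 11 were positive and 0 had an unadjusted p below 0.05; the median was -0.028 (-0.23 and 0.16).

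p53 target genes had both signs in near equal number. Of 38 p53 target genes, 18 were positive, 3 were higher and 2 lower at an unadjusted p below 0.05, and the median was -0.0038. Cdkn1a, the cell cycle inhibitor p21, stood at 70.2, 61 and 52.3 CPM in reconstituted and 40.3, 52 and 45.1 CPM in knockout inhibitor tumours, against 41.3, 40.3 and 42.4 CPM in reconstituted and 51.1, 62.6 and 40.8 CPM in knockout controls. In reconstituted tumours all inhibitor libraries lay above the controls, and in knockout tumours the groups overlapped. On average Cdkn1a had 0.20 ± 0.11 (SE, 95% interval -0.042 to 0.44), with 0.57 and -0.17 by genotype and an interaction p of 0.00632. Mdm2, which degrades p53, had -0.044 ± 0.054 with an interval of -0.16 to 0.074, and Ccng1, cyclin G1, -0.021 ± 0.062 with -0.16 to 0.11.

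The p53 targets with the smallest p were Psrc1, a spindle protein, at 0.34 ± 0.11, the apoptosis effector Bax at 0.26 ± 0.093 and the polo-like kinase gene Plk2 at -0.25 ± 0.093. Psrc1 was positive in both genotypes (0.22 in reconstituted and 0.45 in knockout tumours), and Plk2 was negative in both (-0.28 and -0.22). Bax had 0.59 and -0.074. In the BCL2 family and caspase list 17 of 25 were positive, with 2 higher at an unadjusted p below 0.05, Bax and Bak1 (0.27 ± 0.084; 0.43 and 0.12), which both open the outer mitochondrial membrane. Among 31 senescence-associated secreted factors 13 were positive and the median was -0.052. Csf3, the granulocyte growth factor, at -0.37 ± 0.12 (-0.31 and -0.42), and the growth factor gene Ereg, described below, were the members with p below 0.05. Il6 had -0.37 ± 0.25 with an interval of -0.93 to 0.19. Gdf15, a stress cytokine, had at most 0.609 CPM in any library and an averaged effect of -0.87 ± 0.78.

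**Figure D3:**
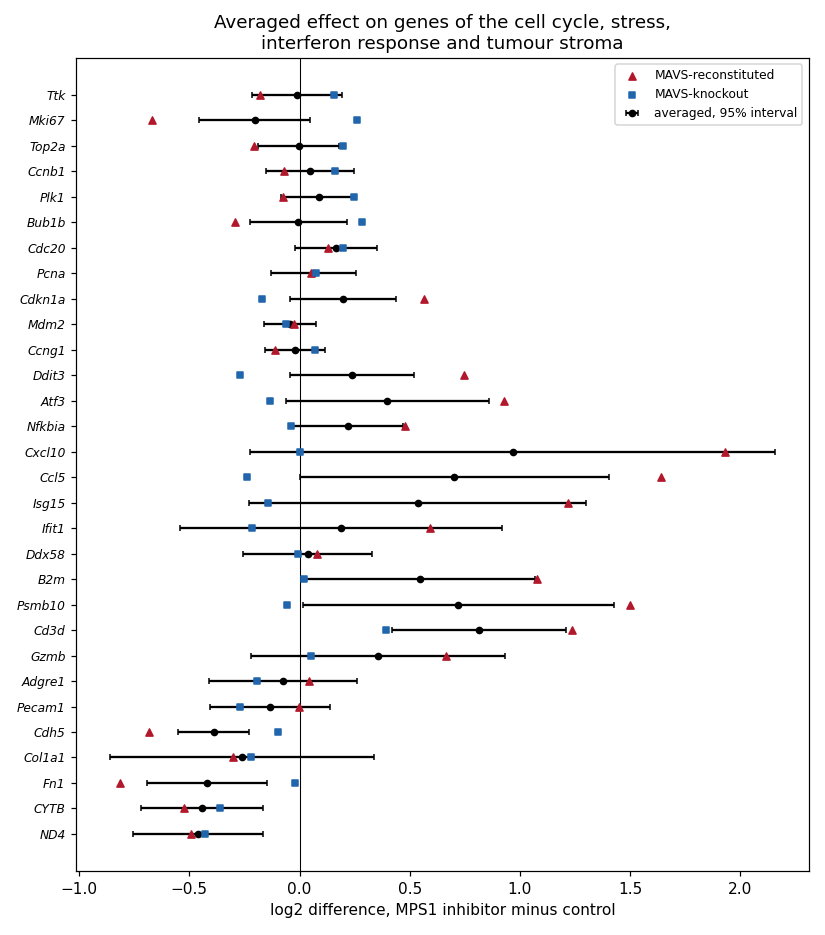
Averaged log2 difference, MPS1 inhibitor minus control, with its 95% interval (black), and the difference in MAVS-reconstituted (triangles) and MAVS-knockout tumours (squares) for 30 genes of the cell cycle, stress, interferon response and tumour stroma. For Mki67, Cdkn1a and Ddit3 the symbols of the genotypes lie on opposite sides of 0, and for CYTB and ND4 they lie close together below 0.

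Interferon response and antigen presentation genes lay higher on average, with medians of 0.57 to 1.35 in reconstituted and near 0 in knockout tumours. All 34 of 34 interferon-gamma response genes were positive, with a median of 0.71 (1.35 in reconstituted and 0.046 in knockout tumours), and 3 were higher at an unadjusted p below 0.05. All 23 of 23 MHC class I presentation genes were positive, with a median of 0.48 (1.01 and -0.013) and 3 at that p. Of 50 type I interferon-stimulated genes, 47 were positive, with a median of 0.27 (0.57 and -0.011) and 3 at that p. Counts at p below 0.05 ran, with 1 library left out, from 0 (without knockout inhibitor replicate 2) to 31 (without reconstituted control replicate 3) for interferon-gamma genes, from 0 (without knockout control replicate 2) to 22 (without reconstituted control replicate 3) for MHC class I genes and from 0 (without knockout control replicate 2) to 20 (without knockout control replicate 1) for type I genes. Without reconstituted inhibitor replicate 1 the medians were 0.56, 0.41 and 0.20, with 0, 0 and 1 genes at p below 0.05.

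Socs1, the feedback inhibitor of JAK kinases, stood at 158, 49 and 83.6 CPM in reconstituted and 13.1, 30.7 and 23.8 CPM in knockout inhibitor tumours, against 11.9, 13.4 and 40.7 CPM in reconstituted and 34.5, 19 and 18.8 CPM in knockout controls. Reconstituted inhibitor libraries lay above their controls and were spread over a wide range, and the knockout groups overlapped. The averaged effect was 1.02 ± 0.38 (SE, unadjusted p = 0.0215), with 2.14 and -0.10 by genotype and an edgeR interaction p of 0.0138. B2m, the light chain of MHC class I, stood at 3836, 2028 and 2627 CPM in reconstituted and 700.1, 1136 and 1158 CPM in knockout inhibitor tumours, against 1086, 1106 and 1837 CPM in reconstituted and 1450.1, 674 and 831 CPM in knockout controls, an averaged effect of 0.55 ± 0.24 (1.08 and 0.018). Its knockout groups overlapped too. Psmb10, an immunoproteasome subunit, had 0.72 ± 0.32 (1.5 and -0.059), and the proteasome activator gene Psme1 0.46 ± 0.18 (0.81 and 0.11).

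Other interferon genes had wide intervals around their averaged effects. Cxcl10, a chemokine for T cells, had 0.97 ± 0.54 (95% interval -0.22 to 2.16), Isg15 0.54 ± 0.35 (-0.23 to 1.3), Ifit1 0.19 ± 0.33 (-0.54 to 0.92) and the RNA sensor gene Ddx58 0.037 ± 0.13 (-0.26 to 0.33). Cxcl10 had 0.64, Isg15 0.31 and Ifit1 0.040 without reconstituted inhibitor replicate 1. The exonuclease gene Isg20 had 0.40 ± 0.15 (0.23 without that library) and Ifi27l2a 0.85 ± 0.32; Ifi27l2a was positive in both genotypes (1.13 and 0.57). In the sensing pathway 21 of 29 were positive with a median of 0.068. Its members at p below 0.05 included Cgas, the DNA sensor that makes cGAMP, which was lower in both genotypes at -0.32 ± 0.13 (-0.34 and -0.30) with 2.52, 3.11 and 4.64 CPM (lowest, median and highest of 6) in inhibitor tumours, against 3.07, 4.1 and 5.49 CPM in controls. Trex1, the DNA exonuclease that limits cGAS signalling, had 0.63 ± 0.28 (1.44 and -0.18).

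A form of the interferon-stimulated response element, the letters GAAA followed after 2 bases of any kind by GAAA again, was searched in the same promoters on both strands. It was found in 18 of 37 type I genes with an entry (48.7%), in 11 of 24 interferon-gamma genes (45.8%), in 5 of 19 MHC class I genes (26.3%) and in 501 of all 12990 tested genes with an entry (3.86%). The windows of Socs1, B2m and Isg15, whose averaged effects were 1.02, 0.55 and 0.54, are shown as examples of the match, which is in capitals.
Socs1, chr16:10785574-10785653, minus strand: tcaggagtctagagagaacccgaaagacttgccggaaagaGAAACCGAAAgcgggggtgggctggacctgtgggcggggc
B2m, chr2:122147508-122147587, plus strand: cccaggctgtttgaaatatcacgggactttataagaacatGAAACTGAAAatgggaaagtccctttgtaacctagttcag
Isg15, chr4:156200845-156200924, minus strand: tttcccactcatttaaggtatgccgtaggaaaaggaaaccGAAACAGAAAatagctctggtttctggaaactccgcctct

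NF-kB and chemokine genes had positive medians in reconstituted and negative medians in knockout tumours. Of 27 NF-kB factors and feedback targets, 19 were positive, 3 were higher and 2 lower at p below 0.05, and the median was 0.081 (0.20 in reconstituted and -0.012 in knockout tumours). Nfkbia, the inhibitor IkB alpha, had 0.22 ± 0.11 (0.094 without reconstituted inhibitor replicate 1), Nfkbib (IkB beta) 0.25 ± 0.084 and the subunit gene Rel -0.24 ± 0.09. Of 25 chemokine genes, 18 were positive and 3 were higher at p below 0.05, with a median of 0.26 (0.77 and -0.24). The median was 0.17, with 0 at p below 0.05, without reconstituted inhibitor replicate 1. Over the fits with 1 library left out, the median ran from 0.14 (without knockout inhibitor replicate 2) to 0.38 (without knockout control replicate 2) and the count from 0 (without knockout control replicate 3) to 7 (without reconstituted control replicate 3). Ccl3, Ccl4 and Ccl5, which attract T cells and macrophages, had 0.74 ± 0.32, 0.65 ± 0.28 and 0.70 ± 0.32; Ccl3 and Ccl4 overlap on opposite strands. Each was positive in reconstituted tumours (1.68, 1.64 and 1.64) and below 0 in knockout tumours (-0.21, -0.33 and -0.24).

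T cell markers were among the lists that were positive in both genotypes. Of 26 markers, 25 had a positive averaged effect. The same sign in both genotypes was found for 20, against 36.3% of all genes. At p below 0.05, 8 were higher, against 4.13% of all genes. The median was 0.37, with 0.72 in reconstituted and 0.13 in knockout tumours. The count ran from 5 (without knockout control replicate 3) to 14 (without reconstituted control replicate 3) with 1 library left out, and was 8 without reconstituted inhibitor replicate 1. The summed level of the list was 205, 214 and 275 summed CPM in reconstituted and 138, 146 and 169.7 summed CPM in knockout inhibitor tumours, against 161, 161 and 219.8 summed CPM in reconstituted and 165, 135 and 126 summed CPM in knockout controls. Summed groups overlapped in both genotypes.

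Cd3d, a chain of the T cell receptor complex, stood at 2.51, 3.73 and 2.89 CPM in reconstituted and 1.58, 1.47 and 2.18 CPM in knockout inhibitor tumours, against 1.51, 0.971 and 1.41 CPM in reconstituted and 1.58, 1.26 and 1.14 CPM in knockout controls. In reconstituted tumours all inhibitor libraries lay above the controls, and in knockout tumours the groups overlapped. The averaged effect was 0.81 ± 0.18 (SE, unadjusted p = 0.00081), with 1.23 and 0.39 by genotype. Cd8a, the coreceptor of cytotoxic T cells, stood at 2.37, 1.07 and 1.04 CPM in reconstituted and 1.08, 0.40 and 0.664 CPM in knockout inhibitor tumours, against 0.173, 0.211 and 0.964 CPM in reconstituted and 0.324, 0.101 and 0.0746 CPM in knockout controls. Inhibitor libraries lay above controls within both genotypes at these low levels, and the effect was 1.92 ± 0.52 (1.73 and 2.1; exact permutation p = 0.005, two-sided, the smallest possible). Trbc2, a T cell receptor beta constant gene with a near-identical copy, had 0.61 ± 0.17 (1.13 and 0.092).

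Cytotoxic lymphocyte and NK cell markers had 17 of 20 positive and 4 at p below 0.05, with a median of 0.43 (0.83 in reconstituted and 0.066 in knockout tumours). Ifng, the interferon-gamma gene, stood at 10.4, 3.26 and 4.61 CPM in reconstituted and 0.40, 1.55 and 0.891 CPM in knockout inhibitor tumours, against 0.502, 0.225 and 2.44 CPM in reconstituted and 1.05, 0.793 and 0.634 CPM in knockout controls. Its knockout groups overlapped, and the averaged effect was 1.36 ± 0.55 (SE, unadjusted p = 0.0296; 2.53 and 0.20). Fasl, the death ligand, had 0.80 ± 0.34 (1.04 and 0.55), Cst7 0.41 ± 0.15 (1.32 and -0.49) and granzyme B (Gzmb) 0.36 ± 0.26 with an interval of -0.22 to 0.93. Without reconstituted inhibitor replicate 1, 2 markers had p below 0.05. Over such fits the count ran from 1 (without knockout control replicate 2) to 12 (without knockout control replicate 1) and the median from 0.27 to 0.80 (the same 2 libraries).

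Macrophage and monocyte markers had an averaged median near 0, and 8 had the same sign in both genotypes, against 36.3% of all genes. Of 28 macrophage and monocyte markers, 16 were positive, 2 were higher and 1 lower at p below 0.05, and the median was 0.022 (0.24 in reconstituted tumours, with 20 positive, and -0.16 in knockout tumours, with 4 positive). Marco, a scavenger receptor, stood at 0.988, 0.763 and 0.689 CPM in reconstituted and 1.04, 4.94 and 1.69 CPM in knockout inhibitor tumours, against 0.277, 0.183 and 0.551 CPM in reconstituted and 0.438, 0.54 and 0.709 CPM in knockout controls. Inhibitor libraries lay above controls within both genotypes, and the effect was 1.73 ± 0.40 (1.27 and 2.18); without knockout inhibitor replicate 2, the highest library, it was 1.28. Adgre1, the macrophage marker F4/80, had -0.076 ± 0.15 with an interval of -0.41 to 0.26. Ly6c2, of inflammatory monocytes, had 0.54 ± 0.22 (1.12 and -0.044). Cd83, of mature dendritic cells, had 0.60 ± 0.20 (1.05 and 0.16), in a dendritic list with 8 of 15 positive. Neutrophil markers had 12 of 17 positive, with a median of 0.25 (0.81 in reconstituted and -0.10 in knockout tumours; 0.10 without knockout inhibitor replicate 3), and B and plasma cell markers 3 of 6, with a median of -0.13 (-0.35 without reconstituted inhibitor replicate 1).

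Endothelial markers lay lower. Of 20 markers, 2 were positive and 3 were lower at p below 0.05 against 3.70% of all genes, with a median of -0.16 (-0.23 in reconstituted and -0.12 in knockout tumours). With 1 library left out the count lower ran from 2 (without knockout control replicate 1) to 8 (without reconstituted control replicate 1). The summed level of the list was 436, 494 and 404 summed CPM in reconstituted and 474, 533 and 474 summed CPM in knockout inhibitor tumours, against 466, 491 and 574 summed CPM in reconstituted and 554, 556 and 503 summed CPM in knockout controls. Groups overlapped within both genotypes. Beside Cdh5, the members at p below 0.05 were the angiopoietin receptor gene Tek at -0.42 ± 0.15 (-0.96 and 0.11) and the VEGF receptor gene Kdr at -0.26 ± 0.11 (-0.58 and 0.065). Both were negative in reconstituted tumours and positive in knockout tumours. Pecam1, the adhesion molecule CD31, had -0.14 ± 0.12 (interval -0.41 to 0.14).

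**Figure D4:**
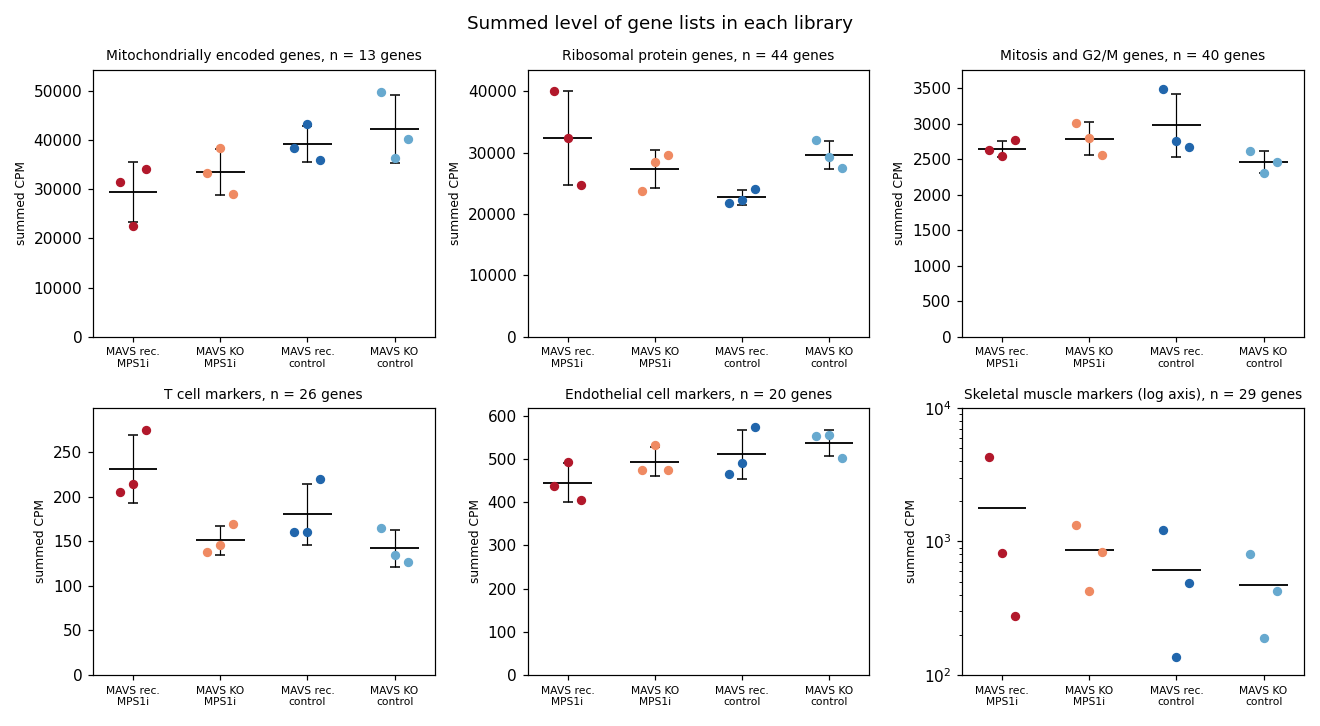
Summed CPM of 6 gene lists in each library. Points are libraries and horizontal bars the group means (n = 3), with SD bars except for muscle markers, which are on a log axis. The group means of mitochondrially encoded genes are lower in the inhibitor groups, and muscle markers spread widely with their highest value in reconstituted inhibitor replicate 1.

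Matrix genes lay lower as well, in reconstituted tumours. Of 33 collagen and matrix genes, 2 were positive and 3 were lower at p below 0.05, with a median of -0.26 (-0.52 and 0.0016). Without reconstituted inhibitor replicate 1 the median was -0.094 and 2 were lower; its summed level of 8939 CPM was the lowest of all 12, the others lying between 19890 and 33917 CPM. Col11a1, a fibrillar collagen chain, had -1.22 ± 0.36 (-2.03 and -0.42), the matrix protein gene Thbs1 -0.32 ± 0.13, and fibronectin (Fn1) -0.42 ± 0.12 (-0.81 and -0.022). Col1a1 had -0.26 ± 0.27 with an interval of -0.86 to 0.34, and -0.093 without reconstituted inhibitor replicate 1. Fibroblast and pericyte markers had 2 of 21 positive and a median of -0.26 (-0.44 and -0.011), with 0 at p below 0.05.

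Growth factor feedback genes lay lower on average, with a median closer to 0 in knockout tumours. Of 23 EGFR ligands and ERK feedback genes, 5 were positive, with a median of -0.10 (-0.19 in reconstituted and -0.057 in knockout tumours). In knockout tumours 10 were positive, and 9 had the same sign in both genotypes, against 36.3% of all genes. At p below 0.05, 4 were lower, against 3.70% of all genes. That count ran from 2 (without knockout inhibitor replicate 2) to 6 (without reconstituted control replicate 3) with 1 library left out. Ereg, the ligand epiregulin, stood at 16.4, 15.4 and 15.6 CPM in reconstituted and 30.7, 24.9 and 26.7 CPM in knockout inhibitor tumours, against 23.5, 19.6 and 17.4 CPM in reconstituted and 40, 28.3 and 32 CPM in knockout controls. In reconstituted tumours all inhibitor libraries lay below the controls, in knockout tumours the groups overlapped, and the averaged effect was -0.32 ± 0.10 (SE, unadjusted p = 0.00904; -0.35 and -0.29). Errfi1, a feedback inhibitor of EGFR, had -0.30 ± 0.087 (-0.50 and -0.10), and Spry1, a feedback inhibitor of ERK signalling, -0.26 ± 0.10 (-0.15 and -0.38). Wnt and Notch target genes had 3 of 19 positive (median -0.13), YAP and TEAD targets 5 of 20 (-0.084) and TGF-beta targets 9 of 20 (-0.0024).

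Genes encoded by mitochondrial DNA had negative medians in both genotypes. All 13 protein-coding genes of the list had a negative averaged effect, 8 of them at p below 0.05, against 3.70% of all genes. The median was -0.38, with -0.47 in reconstituted and -0.32 in knockout tumours. The same sign in both was found for 11, against 36.3% of all genes, and an interaction p below 0.05 for 1, against 24.7%. The count lower ran from 8 (without knockout control replicate 1) to 11 (without reconstituted inhibitor replicate 1) with 1 library left out. None passed adjustment over all genes.

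The summed level of the 13 genes was 31551, 22465 and 34145 summed CPM in reconstituted and 33366, 38273 and 28987 summed CPM in knockout inhibitor tumours, against 38441, 43204 and 36002 summed CPM in reconstituted and 49833, 36336 and 40279 summed CPM in knockout controls. In reconstituted tumours all inhibitor libraries lay below the controls, and in knockout tumours 1 inhibitor library lay above the lowest control. These genes took 2.29 to 3.82% of the counts of inhibitor libraries and 3.66 to 4.79% of those of controls. They are transcribed as long shared precursors from 1 genome, so the members are not independent of each other.

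CYTB, the cytochrome b subunit of complex III, stood at 3344, 2658 and 3865 CPM in reconstituted and 3820.2, 4335 and 3111 CPM in knockout inhibitor tumours, against 4735, 5379 and 4075 CPM in reconstituted and 5641, 4138 and 4689.5 CPM in knockout controls. Its groups overlapped by 1 library in knockout tumours and not in reconstituted tumours. Averaged over genotypes, CYTB had -0.44 ± 0.13 (SE, 95% interval -0.72 to -0.17, unadjusted p = 0.00454), with -0.52 and -0.36 by genotype. The complex I subunit genes ND4 and ND5 had -0.46 ± 0.13 (-0.49 and -0.43) and -0.51 ± 0.16 (-0.77 and -0.25). The list ran from ND4L at -0.80 to ND3 at -0.13 (-0.19 without reconstituted inhibitor replicate 1). ND4L overlaps ND4, and their counts are uncertain.

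Nuclear-encoded subunits of the same respiratory chain were mostly positive. Of 38 nuclear oxidative phosphorylation genes, 36 were positive with a median of 0.21 (0.13 without reconstituted inhibitor replicate 1). That median was composed of 0.53 in reconstituted and -0.086 in knockout tumours. The same sign in both was found for 6, against 36.3% of all genes, and an interaction p below 0.05 for 27, against 24.7%. The 9 that were higher at p below 0.05 included Atp5d, of the ATP synthase, at 0.36 ± 0.14 (0.76 and -0.046, and on average 0.24 without that library) and Cox7b, of cytochrome oxidase, at 0.24 ± 0.083 (0.57 and -0.10). That count was 1 without reconstituted inhibitor replicate 1 and ran from 1 (without knockout inhibitor replicate 3) to 29 (without reconstituted inhibitor replicate 3). Cytosolic ribosomal protein genes had 44 of 44 positive and a median of 0.22 (0.57 and -0.13). The same sign in both genotypes was found for 2, against 36.3% of all genes. At p below 0.05, 3 were higher, against 4.13% of all genes. Without reconstituted inhibitor replicate 1 the median was 0.14, with 43 positive and 0 at p below 0.05. With 1 library left out that count ran from 0 (without knockout control replicate 2) to 42 (without reconstituted inhibitor replicate 3). The averaged positive medians of both lists are composed of positive medians in reconstituted and negative ones in knockout tumours.

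Stress pathway lists had 1 to 3 members higher at an unadjusted p below 0.05, against 4.13% of all genes. For hypoxia and glycolysis genes the count was 3 of 28 (1 to 7 with 1 library left out). It was 1 of 20 each for unfolded protein response, heat shock and NRF2 genes. Integrated stress response genes had 15 of 27 positive, with 3 higher and 1 lower. Beside Cebpb, these included Trib3, a pseudokinase induced by ATF4, at 0.64 ± 0.23 (1.34 and -0.056), and Phgdh, of serine synthesis, at 0.22 ± 0.078 (0.33 and 0.12). Ddit3, the factor CHOP, had 0.24 ± 0.13 (0.75 and -0.27), and Atf3 0.40 ± 0.21. Trib3 had 0.39, Ddit3 0.14 and Atf3 0.20 without reconstituted inhibitor replicate 1. Medians were 0.048 for unfolded protein response genes, 0.039 for heat shock genes, 0.14 for NRF2 and antioxidant genes and 0.07 for hypoxia and glycolysis genes (0.33 in reconstituted and -0.16 in knockout tumours). Without that library the NRF2 median was 0.084 and the hypoxia median 0.018. Hmox1, haem oxygenase, had -0.088 ± 0.25 (interval -0.63 to 0.45).

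Lists of genes that respond to time of day, handling or glucocorticoids had averaged medians near 0, while single members differed. Circadian clock genes had 8 of 19 positive and a median of -0.03. The clock output gene Dbp had 0.24 ± 0.11 (0.53 and -0.054; 0.15 without reconstituted inhibitor replicate 1), and Per1 0.16 ± 0.12 (-0.14 and 0.46). Tsc22d3, the glucocorticoid-induced GILZ, stood at 223, 325 and 458 CPM (lowest, median and highest of 6) in inhibitor tumours, against 158, 256 and 414 CPM in controls, an averaged effect of 0.29 ± 0.10 positive in both genotypes (0.23 and 0.35). Fkbp5, another glucocorticoid target, had 0.012 ± 0.11 with an interval of -0.24 to 0.26. Of 25 immediate early genes, 14 were positive and 3 were higher at an unadjusted p below 0.05, against 4.13% of all genes. Klf2 had 0.46 ± 0.14 (0.78 and 0.15). Of 20 glucocorticoid-induced and metallothionein genes, 12 were positive, 2 were higher and 1 lower at that p. These counts higher ran from 1 to 5 and from 1 to 4 with 1 library left out.

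Skeletal muscle markers, of a host tissue that can border subcutaneous tumours, had a list median that moved strongly with single libraries. All 29 of 29 were positive, with a median of 1.53 (1.94 in reconstituted and 1.14 in knockout tumours) and 3 at p below 0.05. The summed level was 4279, 816 and 277 summed CPM in reconstituted and 1338, 426 and 840.1 summed CPM in knockout inhibitor tumours, against 1221, 137 and 492 summed CPM in reconstituted and 803, 189.6 and 429 summed CPM in knockout controls. Groups overlapped within both genotypes, and Ckmt2, the muscle mitochondrial creatine kinase, was at 0 counts in 1 reconstituted and 2 knockout controls. Without reconstituted inhibitor replicate 1 the median was 0.43, with 28 positive, and without knockout control replicate 1 it was 2.13. The part of muscle RNA in the other averaged effects was not tested. A fit with the muscle level as a covariate was chosen after seeing the data. That level was itself higher under the inhibitor by list median, so the fit cannot separate muscle from treatment. It had 459 genes at an unadjusted p below 0.05, against 1399 without the covariate. There 7 of 13 mitochondrially encoded genes, 5 of 23 EGFR and ERK genes and 6 of 26 T cell markers had p below 0.05 in the direction given above, against 0.934% of all genes higher and 1.63% lower. In the same fit 0 of 34 interferon-gamma, 0 of 23 MHC class I and 0 of 50 type I interferon genes were higher at that p (medians 0.50, 0.33 and 0.12). Higher at that p were 0 of 38 nuclear oxidative phosphorylation and 0 of 44 ribosomal protein genes (both medians 0.13), and 1 of 20 cytotoxic and NK cell and 1 of 25 chemokine genes (0.35 and 0.15). Lower at that p were 2 of 20 endothelial and 2 of 33 collagen and matrix genes. Red blood cell markers had 7 of 9 positive (median 0.70), and lung tumour epithelial markers 9 of 11 (0.14, and 0.044 without reconstituted inhibitor replicate 1).

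**Figure D5:**
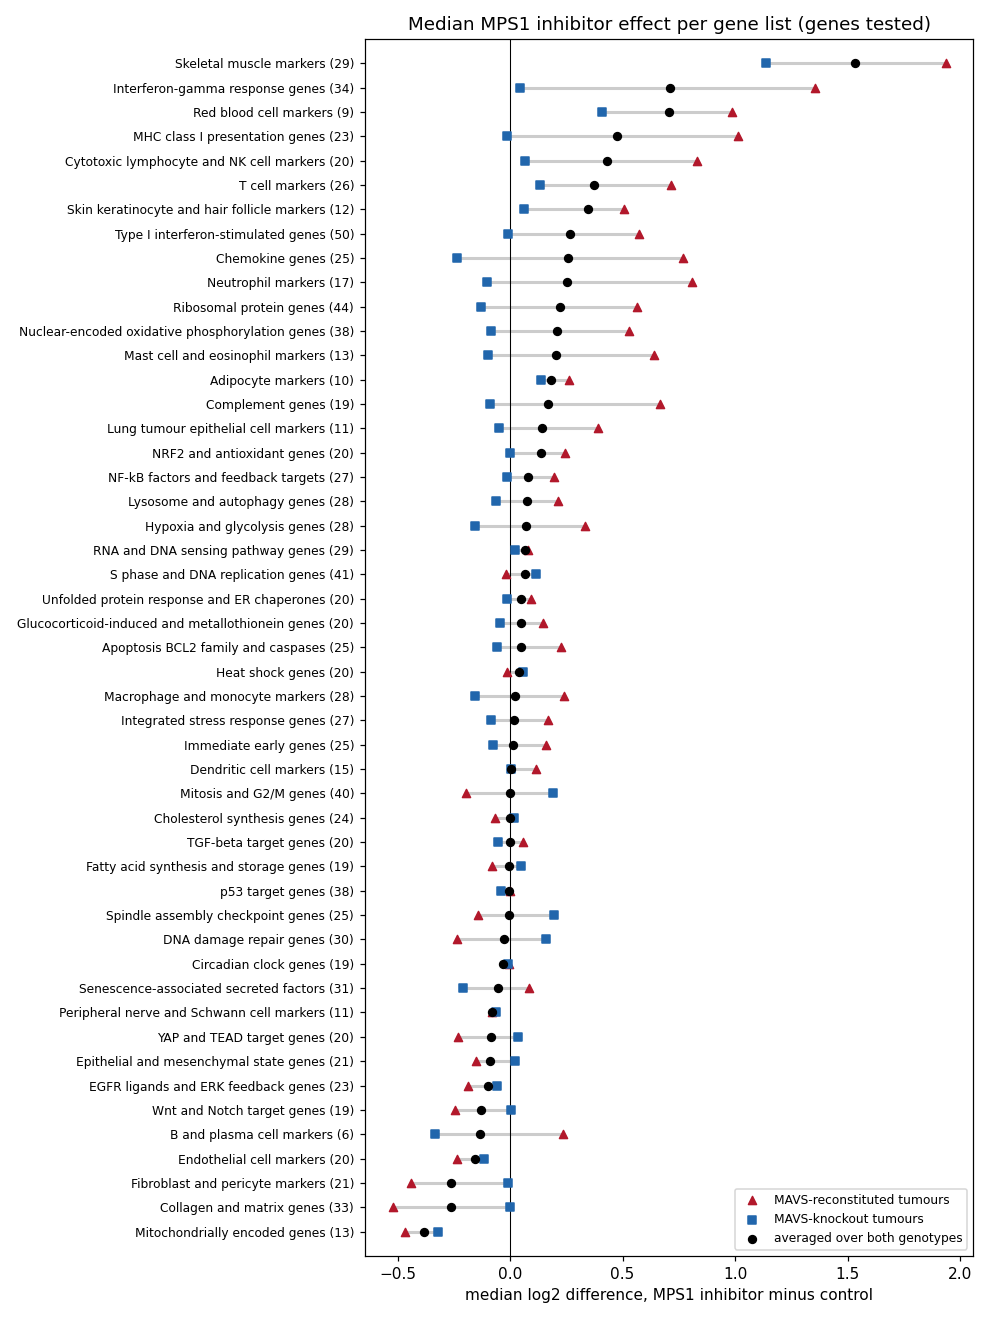
Median log2 difference, MPS1 inhibitor minus control, of each gene list (number of tested genes in brackets), averaged over both genotypes (circles) and in MAVS-reconstituted (triangles) and MAVS-knockout tumours (squares). Mitochondrially encoded genes have all 3 symbols below 0. Interferon, ribosomal and oxidative phosphorylation lists have the reconstituted symbol well above 0. Their knockout symbol lies close to 0 for the interferon lists and below 0 for the ribosomal and oxidative phosphorylation lists.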

How the data were processed

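RNA of subcutaneous tumours was measured in 12 samples by sequencing of stranded libraries from polyadenylated RNA, per the labels' protocols. Trimmomatic, HISAT2, StringTie and the genome build GRCm38 (mm10) are named, with neither version nor role, per the submitters' processing notes. The deposited values are whole-number read counts for 45777 NCBI Gene IDs. Strand use and the treatment of reads shared between genes remain unstated in the labels and notes used here. At least 1 count was found for 27547 genes, and no 2 libraries of a group agreed within sampling noise (smallest chi-square per gene 31.5).

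From these counts, a mean per group was fitted for all 12 libraries in R 4.3.3 with edgeR 4.0.16 (filterByExpr, TMM factors, quasi-likelihood F-test), which kept 17885 genes. The averaged effect was the mean of the inhibitor minus control differences of both genotypes, and the interaction was their difference, reconstituted minus knockout. Benjamini-Hochberg adjustment ran over all genes tested, with a call at an adjusted p below 0.05. Single genes were also tested by an exact permutation of log2 CPM (prior count 2) within genotype. RefSeq (GRCm38.p6) gave positions for 45679 of the IDs and the promoter sequences.

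Named genes were Mavs and Ttk, the 10 genes with the smallest p in each direction (mean log2 CPM of at least 1, no predicted symbols), up to 3 members of each list with the smallest p, and a fixed set, of which 1 gene is not reported here. Values outside this rule are marked as chosen after they were seen. The comparison, the gene lists and the fixed genes were chosen with earlier results of these data known. Lists were given no set test. Alternatives were edgeR's relative log expression (RLE) factors, the Wald test of DESeq2 1.42.0 and limma 3.58.1 (voom, with and without sample quality weights). Further ones were other filters, a robust prior, an additive model, the replicate number as a block and leaving out each library in turn. The labels do not state that the libraries came from separate animals.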

Additional observations from a re-analysis of the deposited data

How the results depend on the processing

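The count of genes passing adjustment for the averaged effect was 0 higher and 0 lower under TMM or RLE factors. That count was also 0 in both directions without a filter or with a filter of 1 CPM in 6 libraries. The count was the same under limma-voom, an additive model and a robust prior. With 1 library left out it ran from 0 to 1 higher and from 0 to 3 lower, and DESeq2 called 1 lower (Cdh5). For the interaction it ran from 0 to 4005 with 1 library left out, and was 3405 with sample quality weights and 1345 in DESeq2; the cause was not tested. DESeq2 gave no adjusted p for 1399 genes. Genes at an unadjusted p below 0.05 numbered 713 in the additive model and 5213 with sample quality weights. Other settings were chosen after seeing the data: without both extreme libraries of the first component (reconstituted inhibitor replicate 1 and reconstituted control replicate 2) there were 584, and with the muscle level as a covariate 459. Library numbers were not shown to pair the samples: 3 of 6 same-numbered pairs within a genotype correlated above 0.1 (-0.11 to 0.30). Over all groups, 9 of 18 same-numbered pairs (-0.11 to 0.31) and 7 of 36 differently numbered pairs (-0.37 to 0.34) did so. Whether equal numbers mark a batch was not tested. With the replicate number as a block, 0 genes passed and 656 higher and 593 lower had an unadjusted p below 0.05; Top2a changed sign to 0.00088. Signs of effects near 0 also changed elsewhere, in each case within the 95% interval. With quality weights Hmox1 had 0.10, Fkbp5 -0.12 and Pecam1 0.0071. Without both extreme libraries Ttk had 0.043, Ccnb1 -0.037, Bub1b 0.012, Ifit1 -0.10, Ddx58 -0.067, Fkbp5 -0.031, Adgre1 0.019 and Rpl34 -0.017. With the muscle covariate Ccnb1 had -0.057, Pcna -0.0085, Ifit1 -0.11, Ddx58 -0.052, Hmox1 0.050, Adgre1 0.051 and Rpl34 -0.0097, and the median of B and plasma cell markers was -0.60. With 1 library left out the ranges were -0.065 to 0.038 for Ttk, -0.061 to 0.018 for Ccng1, -0.058 to 0.048 for Top2a, -0.0076 to 0.13 for Ccnb1, -0.060 to 0.071 for Bub1b, -0.038 to 0.12 for Ddx58, -0.25 to 0.18 for Hmox1, -0.062 to 0.081 for Fkbp5, -0.16 to 0.027 for Adgre1 and -0.00070 to 0.15 for Rpl34.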
